A study of Mus musculus with 4 samples.

Results

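The genes described here are 30 mouse genes that move nutrients into the cell and burn them: transporters of glucose, lactate and amino acids, the enzymes of glycolysis, 3 genes of mTOR complex 1, 2 genes that set which fuel mitochondria use, and the regulators Hif1a, Myc and Ppargc1a. They were followed in ATAC-seq data, in which a transposase cuts open chromatin and the cuts pile up into peaks. Peaks of the 4 deposited lists were merged wherever they overlapped by at least 1 bp, and each merged region went to the protein-coding RefSeq gene (GRCm38) with the interval nearest to its midpoint, up to 100 kb away. Of 97394 merged regions, 82780 had such a gene, and 219 of those belonged to the 30 members. All 30 members had a region, from 1 at Gpi1, Aldoa, Tpi1 and Pgam1 to 21 at Pfkfb3. The median was 5.5 regions per member, against 3 over all 16497 genes that had any.

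The cells were CD4 T cells with the SMARTA T cell receptor transgene, which recognises the GP61 peptide presented by B16-GP61, a mouse melanoma line that expresses it. Naive WT cells and naive cells lacking the DNA-binding protein TOX (KO) had been given to tumor-bearing mice treated with cytoxan, and after 11 days they were recovered by sorting from lymph nodes that drain the tumor (tdLN). WT cells were Ly5.1+ Ly5.2+ and gated PD1hi, LAG3hi and CD39hi, and KO cells were Ly5.1+ Ly5.2- and gated PD1lo, LAG3lo and CD39lo, so that genotype, gate and congenic marker cannot be told apart. The WT libraries are called WT-1 and WT-2 and the KO libraries KO-1 and KO-2, and 4 values given together follow that order. The labels give neither the deleted part of Tox nor whether the 2 libraries of a genotype came from separate mice, and since peaks outside a deleted part do not check a deletion, the genotype was not checked here. With 2 against 2, an exact two-sided permutation test cannot go below p = 0.333. Comparisons are therefore descriptions, each set beside the same count over all regions assigned to a gene.

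Glycolysis splits glucose into pyruvate, and an activated T cell turns much of that pyruvate into lactate and exports it while it grows. T cell receptor and costimulatory signals feed into mTOR complex 1, a kinase complex that also senses amino acids, and mTOR complex 1 raises the levels of MYC and HIF-1α, which bind the starts of glucose transporter and glycolytic genes. HIF-1α binds as a dimer to the hypoxia response element, whose core reads ACGTG or GCGTG, and MYC binds with MAX to the E-box CACGTG. Resting and memory T cells rely more on fatty acid oxidation, for which Cpt1a carries fatty acids into mitochondria.

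The lists differed in length and in the cell types whose marker genes carried peaks. They held 56852 and 61489 peaks for WT and 43078 and 61773 for KO, and 1603 to 1900 peak numbers were missing from a list, so an absent peak can be a removed one. Regions of 12 T cell marker genes with a peak numbered 69 and 82 in the WT and 73 and 103 in the KO libraries, Cd3e, Cd4 and Lck among them in every library. Regions of 12 B cell marker genes numbered 97 and 106 in the WT libraries against 11 and 19 in the KO libraries, where Ms4a1 and Fcer2a had none. Regions of 12 myeloid and dendritic cell genes numbered 63 and 69 against 25 and 41, but not every gene of this list followed. Adgre1 had 4 and 3 in WT against 0 and 0 in KO. Itgam had 4 and 7 against 5 and 6, and Fcgr1 had 1 and 2 in both genotypes. The part of such cells in the WT-only regions below was not tested.

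Most of these genes had an open start in all 4 libraries. RefSeq start windows, 250 bases before to 50 after a transcription start, were on file for 26 members, with 38 windows in all. For 24 of the 26 genes (92.3%) at least 1 window lay in a region with a peak in every library, where the share over all 17274 genes with a window was 50.3%. Counted by window, 31 of 38 (81.6%) lay in such a region, against 48.3% of all windows. The genes without one were Pfkl, the liver-type phosphofructokinase, and Ppargc1a. The window of Pfkl overlapped no peak in any list, and the 2 regions of Pfkl held 1 peak of WT-1 and 1 of WT-2. The single window of Ppargc1a lay inside the gene and had no peak either, whereas a shared region lay within 1 kb of the upper end of the gene interval (chromosome 5, 52115590 to 52116368). Slc2a3, Slc1a5, Slc7a5 and Myc had no window on file, and a shared region lay at or within 1 kb of an end of each of these 4 gene intervals.

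Most covered starts stood in the upper part of each list. The strength of a peak is given as the percentile of its deposited fold enrichment (the peak over the caller's background in that library) within its own list, taking the highest peak of a region. Lists of different length make such percentiles a description of each list, not a difference between lists. Over the 25 shared regions at member starts the median percentile was 89.3 and 90.3 in the WT and 88.1 and 87.1 in the KO lists. Over the 8156 shared regions at starts of all genes it was 90.0, 90.8, 86.8 and 89.7, so member starts were about as strong as open starts in general. The other 74 shared regions of the members, which cover no window on file, were weaker, with medians of 65.3, 67.8, 57.5 and 70.4. They include gene ends of members without a window.

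**Figure D1:**
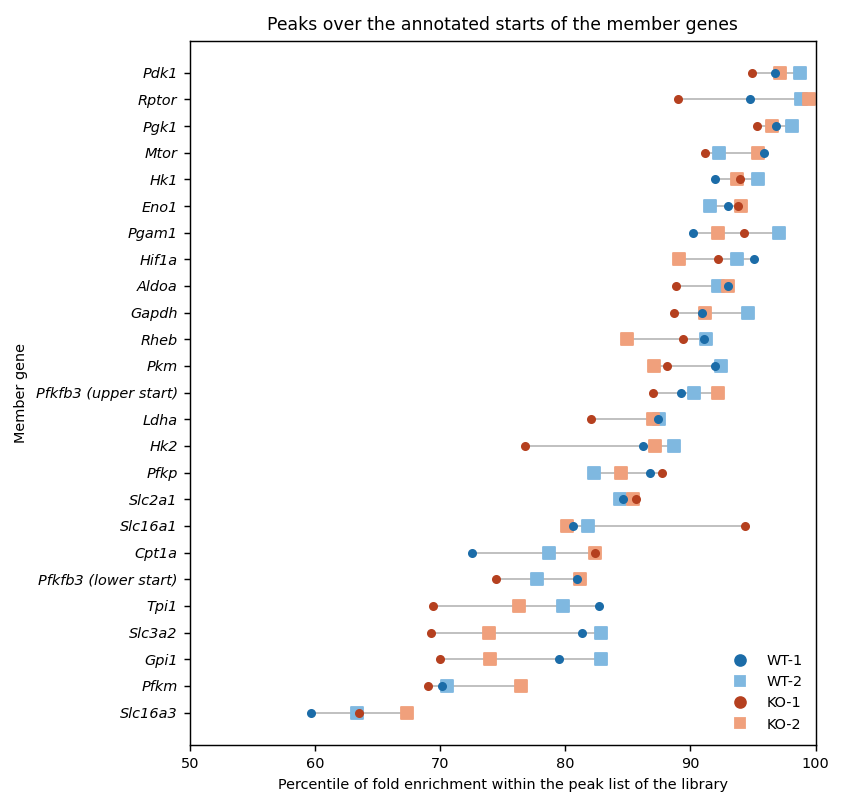
Percentile of the deposited fold enrichment (x axis, from 50 to 100) of the 25 shared regions over annotated starts of member genes (y axis, ordered by their median), 1 point per library (circles replicate 1, squares replicate 2, blue WT, orange to red KO) and a grey line from the lowest to the highest. Pdk1, Rptor and Pgk1 lie highest and Slc16a3 lowest.

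The strongest starts belonged to Pdk1, Rptor and Pgk1. Pdk1, the kinase that switches off pyruvate dehydrogenase, stood at percentile 96.8 and 98.8 in WT and 94.9 and 97.2 in KO (chromosome 2, 71872810 to 71873904). Rptor, the scaffold of mTOR complex 1, stood at 94.8, 98.8, 89.0 and 99.5 (chromosome 11, 119602421 to 119603632). Pgk1, phosphoglycerate kinase, stood at 96.8, 98.1, 95.3 and 96.5 (chromosome X, 106186463 to 106187435). At Pdk1 and Rptor the WT and KO values overlapped, and at Pgk1 the lower WT value exceeded the higher KO value by a small margin. The lowest start was that of Slc16a3, the lactate exporter MCT4, at 59.6, 63.3, 63.5 and 67.3 (chromosome 11, 120948366 to 120949340), where the lower KO value exceeded the higher WT value by a small margin.

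To compare libraries on lists of equal length, the fold enrichment of each library was ranked over the same 26867 regions with a peak in every library, from 0 to 100. At 7 of the 25 starts (28.0%) both WT ranks lay above both KO ranks, against 24.4% of shared regions at starts of all genes, and at 5 of 25 both KO ranks lay above both WT ranks, against 12.1%. Both shares were above their background, each by no more than a few starts. WT ranked higher at Gpi1, Hk2, Ldha, Pgk1, Pkm, Tpi1 and Slc3a2. Gpi1, glucose-6-phosphate isomerase, ranked 59.1 and 62.7 in WT and 52.4 and 42.2 in KO, and Tpi1, triosephosphate isomerase, 64.9 and 56.8 against 51.6 and 46.7. Pkm, pyruvate kinase, ranked 83.2 and 82.8 against 80.9 and 70.4. At Gpi1 and Pkm the gap between genotypes was smaller than the distance between the 2 KO libraries, and at Tpi1 smaller than that between the 2 WT libraries. KO ranked higher at Cpt1a, Eno1, Pfkm, Slc16a3 and the upper start of Pfkfb3. The Cpt1a start ranked 47.7 and 54.8 in WT and 71.8 and 59.7 in KO, again with a gap smaller than the distance between the KO libraries.

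Peak summits at the 25 start regions had a median spread of 21 bp over the 4 libraries, against 30 bp over the 8156. The spread was within 20 bp in 11 of 25 (44.0%, against 39.1%) and reached 451 bp at Slc3a2, where the summit lay at 502, 507, 56 and 503 bp from the start. At Slc2a1 it lay at 426, 3, 411 and 426 bp, so 1 library differed from the others at both. At Rheb, the small GTPase that switches on mTOR complex 1, the summit lay at -329 bp from the start in every library. At the upstream-most open start of Eno1, enolase, it lay at 473 or 474 bp, which is 16 or 15 bp before the next annotated start.

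Start windows were searched for motifs, and sequences of those with the most kinds are printed below. ACGTG, the hypoxia response core with A, was found on either strand in 21 of 38 member windows (55.3%), against 21.1% of the 21045 windows of all protein-coding genes and 27.3% of the 10166 windows in a shared region. By gene this was 18 of 26 (69.2%), against 23.5% of all genes with a window and 29.3% of genes with a window in a shared region. Windows of 1 gene can overlap and share a match, and no test was made. The other core, GCGTG, was in 44.7% of member windows, 38.8% of all and 55.7% of those in a shared region. Either core was in 76.3% of member windows, against 49.8% of all and 67.3% of those in a shared region. The E-box CACGTG, which contains ACGTG on both strands, was in 6 member windows (15.8%), against 7.91% of all and 10.9% in a shared region. The member windows had a median GC content of 62.3%, as did all windows in a shared region (62.3%), where windows of all genes had 56.7%.

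Of the other motifs searched on both strands, the GC box GGGCGG was in 60.5% of member windows (46.7% of all, 69.6% in a shared region) and CCAAT, bound by NF-Y, in 34.2% (38.5% and 38.6%). TTCCGG of ETS factors was in 18.4% (18.9% and 31.7%) and TGTGGT of RUNX factors in 15.8% (14.7% and 11.5%). TGANTCA of AP-1 was in 1 member window (2.63%), at Aldoa (7.04% of all, 3.86% in a shared region), and TATAAA in 1 at Slc2a1 (12.7% and 5.58%). A match is a run of letters, not a bound site.

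The 6 members with the most kinds of motif (ties broken by the number of matches, then by gene name, which set Hk1 before Pfkfb3, Rheb and Slc16a1) are printed from the RefSeq table for GRCm38.p6, 5′ to 3′ on the strand of the gene, with each ACGTG or GCGTG of either strand in capitals (CACGT and CACGC are their reverse complements). Slc2a1 is chr4:119108495-119108794 (plus strand), Ldha chr7:46845554-46845853 (plus), Aldoa chr7:126799205-126799504 (minus), Pfkp chr13:6648722-6649021 (minus), Hk2 chr6:82774405-82774704 (minus) and Hk1 chr10:62340372-62340671 (minus).
Slc2a1: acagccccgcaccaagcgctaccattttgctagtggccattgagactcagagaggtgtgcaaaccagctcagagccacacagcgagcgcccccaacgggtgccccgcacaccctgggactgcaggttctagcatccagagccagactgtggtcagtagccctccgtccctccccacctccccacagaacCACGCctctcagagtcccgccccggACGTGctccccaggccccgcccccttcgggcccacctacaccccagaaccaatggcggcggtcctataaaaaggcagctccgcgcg
Ldha: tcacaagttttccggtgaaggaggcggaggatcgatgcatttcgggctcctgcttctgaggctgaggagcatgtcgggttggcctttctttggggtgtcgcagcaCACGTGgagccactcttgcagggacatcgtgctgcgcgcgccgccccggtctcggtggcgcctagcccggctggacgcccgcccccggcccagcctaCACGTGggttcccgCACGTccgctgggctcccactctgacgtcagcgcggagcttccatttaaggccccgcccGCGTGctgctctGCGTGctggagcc
Aldoa: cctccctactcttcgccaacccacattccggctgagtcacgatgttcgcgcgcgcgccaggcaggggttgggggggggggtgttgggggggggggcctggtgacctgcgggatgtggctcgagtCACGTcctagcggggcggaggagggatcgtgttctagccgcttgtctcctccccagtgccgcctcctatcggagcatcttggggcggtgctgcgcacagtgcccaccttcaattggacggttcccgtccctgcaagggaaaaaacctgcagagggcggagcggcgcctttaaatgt
Pfkp: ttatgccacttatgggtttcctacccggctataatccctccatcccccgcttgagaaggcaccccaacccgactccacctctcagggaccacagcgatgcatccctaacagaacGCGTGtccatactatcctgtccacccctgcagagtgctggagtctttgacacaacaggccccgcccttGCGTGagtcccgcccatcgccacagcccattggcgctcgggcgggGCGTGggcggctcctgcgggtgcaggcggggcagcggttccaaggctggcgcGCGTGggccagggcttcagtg
Hk2: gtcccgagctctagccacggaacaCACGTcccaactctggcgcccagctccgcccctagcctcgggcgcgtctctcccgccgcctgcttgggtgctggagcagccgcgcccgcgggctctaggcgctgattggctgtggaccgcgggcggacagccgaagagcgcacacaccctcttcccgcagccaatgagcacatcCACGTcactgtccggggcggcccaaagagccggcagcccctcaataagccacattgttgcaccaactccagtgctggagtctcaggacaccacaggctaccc
Hk1: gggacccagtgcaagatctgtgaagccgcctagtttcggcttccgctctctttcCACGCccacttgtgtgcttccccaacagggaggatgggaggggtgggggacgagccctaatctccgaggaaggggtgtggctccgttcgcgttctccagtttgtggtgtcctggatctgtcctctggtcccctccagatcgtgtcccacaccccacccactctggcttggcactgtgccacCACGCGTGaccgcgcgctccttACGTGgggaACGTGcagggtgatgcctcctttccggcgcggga
The Ldha window held 7 core matches, 4 of them within its 2 E-boxes, and 3 GC boxes. Hk1 held 5 core matches, Pfkp 4 (all of them GCGTG), Slc2a1 and Hk2 2 each and Aldoa 1. All 6 windows lay in regions with a peak in every library, with the percentiles in the plot of starts. Ldha, which turns pyruvate into lactate, stood at 87.4 and 87.5 in WT and 82.0 and 87.0 in KO.

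A region is called WT-only where WT-1 and WT-2 had a peak and KO-1 and KO-2 had none, and KO-only in the reverse case. Over all assigned regions 9.65% were WT-only and 1.88% KO-only, and 31.4% were shared by all 4 libraries. Of the 33 regions of glucose and lactate transporters, 21 (63.6%) were shared, 4 WT-only and 0 KO-only. Slc2a1, the glucose transporter GLUT1, had 9 regions, and its start stood at 84.6 and 84.3 in WT and 85.6 and 85.4 in KO, the narrowest spread among the 25 start regions. Its 2 WT-only regions lay inside the gene (chromosome 4, 119118627 to 119119231, 10184 bp after the start) and beyond it (119142263 to 119142630, 5116 bp from the gene). The first was enriched 4.49-fold (WT-1) and 4.11-fold (WT-2), and the second 3.21-fold and 3.25-fold. Slc2a3, the high-affinity glucose transporter GLUT3, had 11 regions, the strongest of them outside the gene on chromosome 6, 122810307 to 122811637, at 94.1, 93.8, 94.6 and 89.1. That region lay 8609 bp from Slc2a3 and 9212 bp from Foxj2, so its assignment rested on a small difference in distance. Slc16a1, the lactate transporter MCT1, had 10 regions, and Slc16a3 had 3, all shared.

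Glycolytic enzymes had 82 regions, 38 of them shared by all libraries, 4 WT-only and 3 KO-only. A start was open in every library for 14 of the 15 enzymes, the exception being Pfkl. Hexokinases trap glucose in the cell. Hk1 had 2 annotated starts. A region over the inner one (chromosome 10, 62339254 to 62340798) stood at 92.0, 95.4, 93.9 and 93.7, and the outer one had no peak in any list. Hk2, the inducible hexokinase, had 12 regions, among them a KO-only region 1150 bp and a WT-only region 6758 bp upstream of the start. Among the phosphofructokinases Pfkp, the platelet form, had 11 regions, against 2 each at Pfkm and Pfkl. The strongest region of Pfkp lay inside the gene (chromosome 13, 6632483 to 6634255) at 87.4, 84.4, 86.0 and 96.2. Pfkfb3, which makes the activator of phosphofructokinase, had 21 regions, 9 of them shared, and both of its annotated starts were covered. Of the other enzymes, Gpi1, Aldoa, Tpi1 and Pgam1 had 1 region each, Pgk1 2, Gapdh and Pkm 3 each, Ldha 5 and Eno1 8.

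Of the 15 enzymes, 12 had no genotype-specific region, including Gapdh, Eno1, Pkm, Pgam1, Aldoa and Ldha. Gpi1, Aldoa, Tpi1 and Pgam1 had only 1 region each, and the same count over all genes was not made. By region, 4.88% of the 82 were WT-only and 3.66% KO-only, against 9.65% and 1.88% over all assigned regions. The Gapdh start stood at percentile 90.9 and 94.6 in WT and 88.7 and 91.2 in KO, and Pgam1, phosphoglycerate mutase, at 90.2 and 97.0 against 94.3 and 92.2, both with overlapping genotypes. Aldoa, aldolase, stood at 93.0, 92.2, 88.9 and 93.0, and Eno1 at 93.0, 91.5, 93.8 and 94.1.

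Amino acid transporters had 14 regions, 9 shared, 2 WT-only and 0 KO-only. Slc7a5, the leucine transporter LAT1, had its strongest region at the upper gene end (chromosome 8, 121906469 to 121908319), at 89.3, 93.9, 90.7 and 88.5. Its partner Slc3a2 had its strongest region there too (chromosome 19, 8722748 to 8723594) at 94.1, 97.8, 94.3 and 96.5. Slc1a5, the glutamine transporter ASCT2, stood at 86.1, 84.6, 83.2 and 87.3 at the lower gene end (chromosome 7, 16780902 to 16781654). These 3 regions were strong in every library, with overlapping genotypes.

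The genes of mTOR complex 1 had 29 regions, 8 shared, 3 WT-only and 1 KO-only. Mtor, the kinase, had 6 regions, with its start at 95.9 and 92.3 in WT and 91.2 and 95.4 in KO. Rptor had 18 regions, all 3 WT-only ones of this group among them, and Rheb had 5, with the KO-only one.

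Of the regulators, Hif1a, the oxygen-regulated subunit of HIF-1, had 20 regions, Ppargc1a, a coactivator of mitochondrial genes, 17, and Myc 14. The Hif1a start stood at 95.0, 93.8, 92.2 and 89.1 (chromosome 12, 73907407 to 73908776). Before the gene lay a row of 7 shared regions, from 73841869 to 73896220, the strongest at 73841869 to 73842940 with 86.0, 82.6, 85.5 and 91.0. That strongest region lay 58920 bp from Hif1a and 64219 bp from Prkch, so its assignment rested on a small difference in distance. The region at the lower gene end of Myc was weak by fold enrichment, at 46.9, 44.4, 8.16 and 38.1 (chromosome 15, 61984866 to 61985928). By −log10 q the same region stood higher in every list, at percentiles 72.1, 71.7, 50.3 and 64.8. The strongest region of Myc by fold enrichment lay 48096 bp from the gene (62037665 to 62039250), at 79.0, 74.5, 60.0 and 75.1. Ppargc1a reached 79.8, 73.6, 67.6 and 63.7 at its strongest region, inside the gene (chromosome 5, 51551936 to 51553098). Cpt1a and Pdk1 had 10 regions between them, 5 shared and 1 WT-only. The strongest was the Pdk1 start given above.

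**Figure D2:**
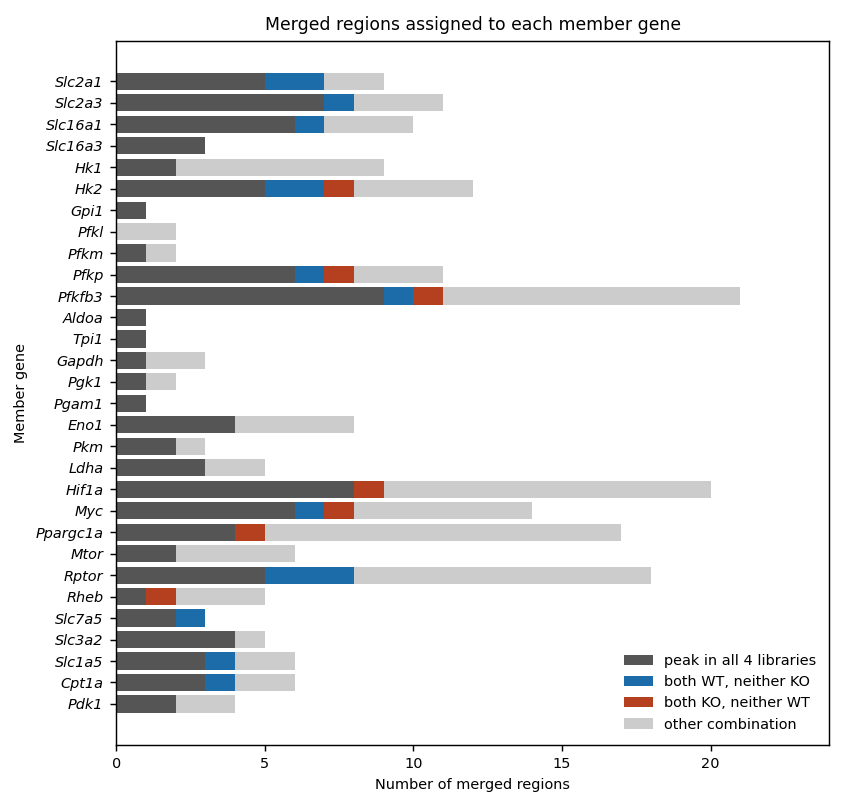
Number of merged regions (x axis) assigned to each member gene (y axis, by role from transporters at the top to fuel choice at the bottom), split by the libraries with a peak. Pfkfb3, Hif1a and Rptor have the most regions with 21, 20 and 18, and dark grey, a peak in all 4 libraries, is present at every member but Pfkl.

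Over all 219 regions, 99 (45.2%) had a peak in every library, against 31.4% of all regions assigned to a gene. All 25 regions of the members that cover a start window were shared, where 87.1% of such regions over all genes were. Of the member regions that cover no start window, 74 of 194 (38.1%) were shared, against 24.3%. These include regions at gene ends of Slc2a3, Slc1a5, Slc7a5 and Myc, which had no window on file. Another 77 member regions (35.2%) had a peak in 1 library alone, against 42.2%. Peaks in every library but KO-1, the shortest list, made up 11 member regions (5.02%, against 6.39% over all).

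The number of member regions with a peak was 146 in WT-1 and 156 in WT-2, 151 ± 7.07 (SD, n = 2), and 123 in KO-1 and 150 in KO-2, 136.5 ± 19.1 (SD, n = 2). KO-1 was low and KO-2 lay between the WT libraries. The difference of 14.5 regions was smaller than the spread of the KO libraries (exact two-sided permutation p = 0.667). It was 0.5 without KO-1 and 28.5 without KO-2, 1 with the 43078 strongest peaks of each list, and -3 with the 20000 strongest of each. Where the strongest peaks of a list were taken by number, they were ordered by the deposited −log10 p, not by fold enrichment. The lists as a whole held 59170.5 ± 3279 peaks in WT and 52425.5 ± 13219 in KO (SD, n = 2 each).

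There were 15 WT-only regions among the members (6.85%), where 9.65% of all assigned regions were WT-only, and 7 KO-only regions (3.20%), where 1.88% were. The first share was below and the second above its background, on a few regions each. Among regions that cover no start window the shares were 7.73% against 10.6% and 3.61% against 2.09%. WT-only regions stood at 11 members, KO-only regions at 7, both kinds at Hk2, Pfkfb3, Pfkp and Myc, and neither at 16. These counts of genes were not made over all genes. None covered a start window, where 2.42% of the regions at starts of all genes were WT-only and 0.299% KO-only. Inside a gene interval lay 11 WT-only regions (73.3%, against 57.1% of all WT-only regions) and 6 KO-only regions (85.7%, against 63.3%). Their median width was 402 bp for WT-only and 264 bp for KO-only regions, against 780 bp for the shared ones, where the medians over all assigned regions were 372, 330 and 858 bp. The counts depended on the libraries, since leaving one out loosens the rule. WT-only and KO-only regions numbered 16 and 33 without KO-1, 26 and 19 without KO-2, 40 and 7 without WT-1, and 36 and 12 without WT-2. With the 43078 strongest peaks of each list by −log10 p they numbered 10 and 8, and with the 20000 strongest 6 and 9. Which kind was more frequent thus turned between settings. Shares over all assigned regions were not made for these settings, so the turn cannot be told apart from one of the whole lists.

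**Figure D3:**
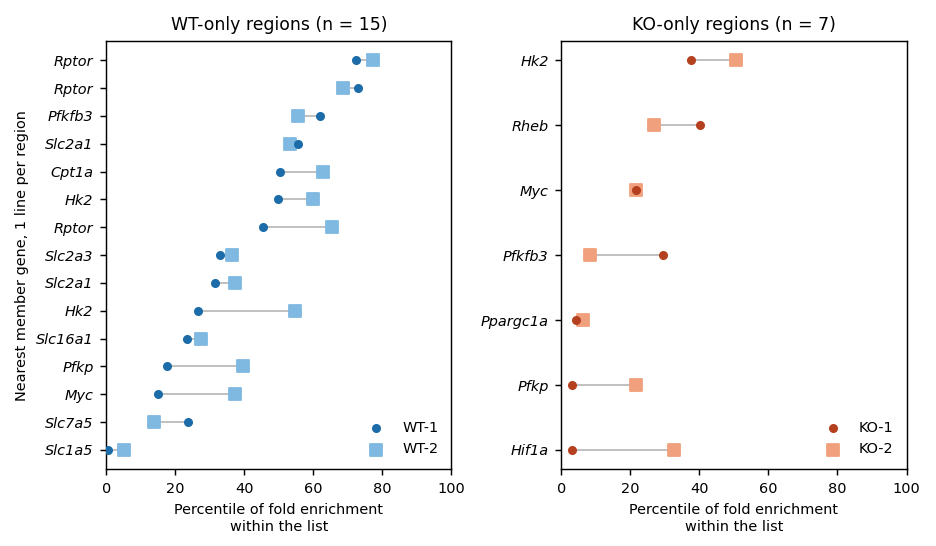
Percentile of the deposited fold enrichment (x axis) of each of the 15 WT-only regions (left, WT-1 circles and WT-2 squares) and 7 KO-only regions (right, KO-1 circles and KO-2 squares), 1 line per region, named by the nearest member gene (y axis). The strongest are a pair at Rptor, above 68 in both WT libraries, and all KO-only regions but that of Hk2 lie below 41.

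Of the 18 regions of Rptor 3 were WT-only, among them the 2 strongest of the 15 by median percentile. The first lay 13539 bp upstream of the start (chromosome 11, 119589063 to 119589670), outside the gene, and was enriched 6.46-fold (WT-1) and 7.21-fold (WT-2), percentiles 72.3 and 77.3. The second lay in the gene, 260683 bp after the start (119863294 to 119863883), with 6.57 and 5.65, percentiles 72.9 and 68.7, and the third at 119894583 to 119895000 with 3.82 and 5.23. No peak of either KO list touched these 3 regions. All 3 lay above the median percentiles of all WT-only regions, 42.5 and 46.2. The medians of the 15 were 32.9 in WT-1, below that of all WT-only regions, and 53.4 in WT-2, above it. The number of 3 was found also without KO-1, without KO-2 and with the 43078 strongest peaks of each list. It held with a −log10 q of at least 5 and with an overlap of at least 100 bp. It was 2 with a −log10 q of at least 10, with summits within 150 bp, or with a gene within 10 kb. It was 1 with the 20000 strongest, 6 without WT-1 and 4 without WT-2. The next gene beyond the upstream region was Nptx1, 41546 bp away.

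WT-only regions at Pfkfb3, Cpt1a and Hk2 and the first Slc2a1 region given above, each inside the gene, were near the third Rptor region in strength. The Pfkfb3 region (chromosome 2, 11490337 to 11490890) was enriched 5.05-fold and 4.31-fold in the WT libraries, the Cpt1a region (chromosome 19, 3334083 to 3334473) 4.13 and 4.95, and the Hk2 region (chromosome 6, 82763826 to 82764491) 4.12 and 4.66. The other Hk2 region, upstream at 82781112 to 82781312, had 3.06 and 4.24. The rest were weaker. Those at Slc2a3 (chromosome 6, 122740030 to 122740403), Slc16a1 (chromosome 3, 104640937 to 104641180), Pfkp (chromosome 13, 6583431 to 6584106), Myc (chromosome 15, 62031906 to 62032177), Slc7a5 (chromosome 8, 121898176 to 121898370) and Slc1a5 (chromosome 7, 16784510 to 16784911) had fold enrichments from 2.08 to 3.39. The Slc1a5 region was the weakest, with 2.08 and 2.53, percentiles 0.449 and 5.28. The WT-only region at Pfkp lay 3610 bp from Pitrm1, the next gene.

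Of the 7 KO-only regions, 6 were below percentile 41 in both KO libraries. The one upstream of Hk2 (chromosome 6, 82775481 to 82775727) led with 3.19-fold (KO-1) and 4.26-fold (KO-2) enrichment, percentiles 37.5 and 50.5. Rheb (chromosome 5, 24825780 to 24826342) followed with 3.27 and 3.26, Myc (chromosome 15, 61987906 to 61988202) with 2.89 and 3.17, and Pfkfb3 (chromosome 2, 11542236 to 11542499) with 2.98 and 3.02. Pfkp (chromosome 13, 6642424 to 6642624) had 2.47 and 3.17, Hif1a (chromosome 12, 73913344 to 73913571) 2.46 and 3.43, and Ppargc1a (chromosome 5, 52113151 to 52113506) 2.55 and 2.95. In none of the 7 did both KO libraries reach a deposited −log10 q of 10, which 3 of the WT-only regions (2 at Rptor, 1 at Pfkfb3) did in both WT libraries. These 2 counts were not made over all genes. The median percentile of the 7 was 21.6 in both KO-1 and KO-2. Over all KO-only regions it was 29.9 and 43.5, against 42.5 (WT-1) and 46.2 (WT-2) over all WT-only regions.

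**Figure D4:**
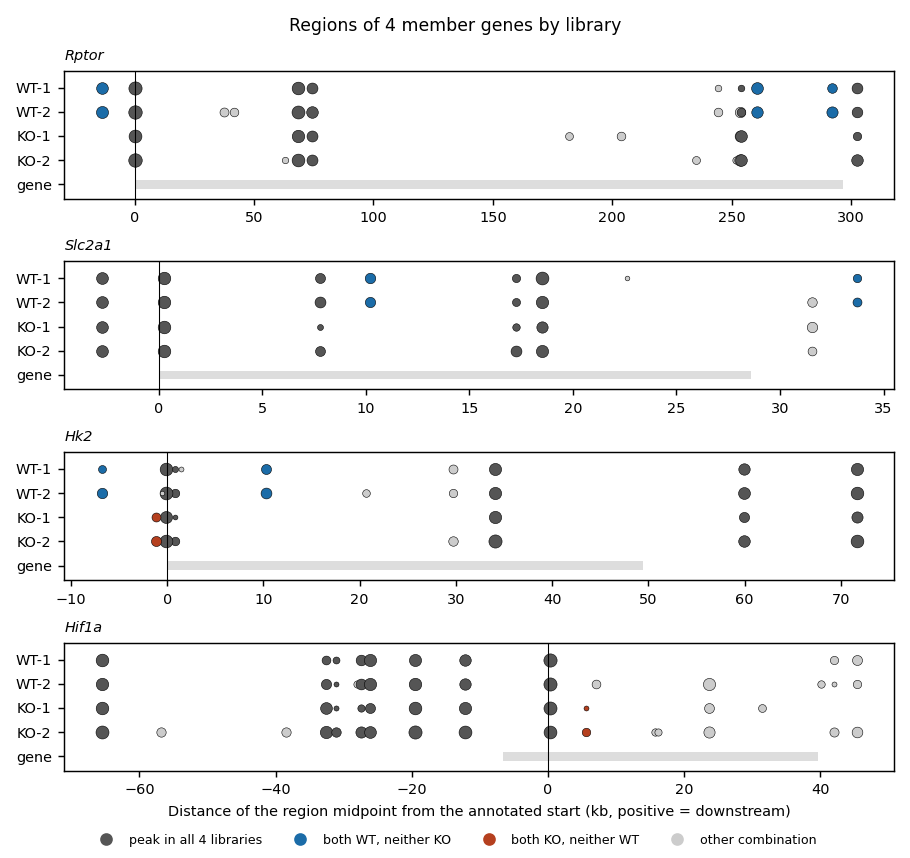
Regions of Rptor, Slc2a1, Hk2 and Hif1a (4 panels) by distance of the midpoint from the annotated start (x axis, kb), 1 row per library and 1 point per region with a peak in it, larger for a higher percentile; the grey bar is the gene interval. WT-only points (blue) lie upstream of Rptor and inside it, and shared regions (dark grey) line the upstream side of Hif1a.

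Shared regions were compared by the same ranks over 26867 regions. Of the 99 shared member regions, 26 (26.3%) had both WT ranks above both KO ranks, against 24.2% of the 26014 shared regions with a gene, and 22 (22.2%) had the reverse, against 21.5%. Both shares were near their background, and in the other 51 the genotypes overlapped. A gap over 20 percentile points was found with WT higher in 2 (2.02%, against 2.58%) and with KO higher in 5 (5.05%, against 2.85%).

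The region with the widest gap lay inside Pfkp (chromosome 13, 6626385 to 6627155), 22001 bp after the start. Its ranks were 6.51 and 8.61 in WT and 58.0 and 57.5 in KO, with fold enrichments of 3.12, 3.27, 5.89 and 9.64, so both KO libraries were high and both WT libraries low. A region 26022 bp before the Hif1a interval (chromosome 12, 73874986 to 73875619) had ranks of 9.47, 18.3, 57.0 and 57.2. Another, 5641 bp before it (73895146 to 73896220), had 43.0, 37.1, 68.4 and 75.6. The region 7356 bp from Slc16a3 and 8202 bp from Ccdc57 (chromosome 11, 120940799 to 120941457) had 19.98, 48.6, 83.8 and 80.9. In these 4 regions, as in the next, both KO libraries ranked above both WT libraries, while the WT libraries themselves differed most at Slc16a3. Inside Rptor, the region at 119856628 to 119857055 had 2.66, 6.62, 56.0 and 37.1. Rptor thus held the 2 strongest WT-only regions and also a shared region ranked higher in KO.

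The reverse gap was widest 42620 bp beyond Slc16a1 (chromosome 3, 104700841 to 104701324), with ranks of 62.5 and 61.9 in WT and 4.83 and 31.2 in KO. Inside Slc7a5 (chromosome 8, 121898472 to 121898936) the ranks were 51.3, 47.6, 16.8 and 26.8. A Hif1a region 19615 bp before the interval (chromosome 12, 73881271 to 73882148) had 59.9, 58.6, 25.4 and 41.4, so upstream regions of Hif1a differed in both directions. Inside Myc (chromosome 15, 61986685 to 61987777) the ranks were 21.5, 18.1, 2.92 and 4.44, low in every library, and the start window of Slc3a2 had 62.4, 62.7, 51.3 and 42.1.

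**Figure D5:**
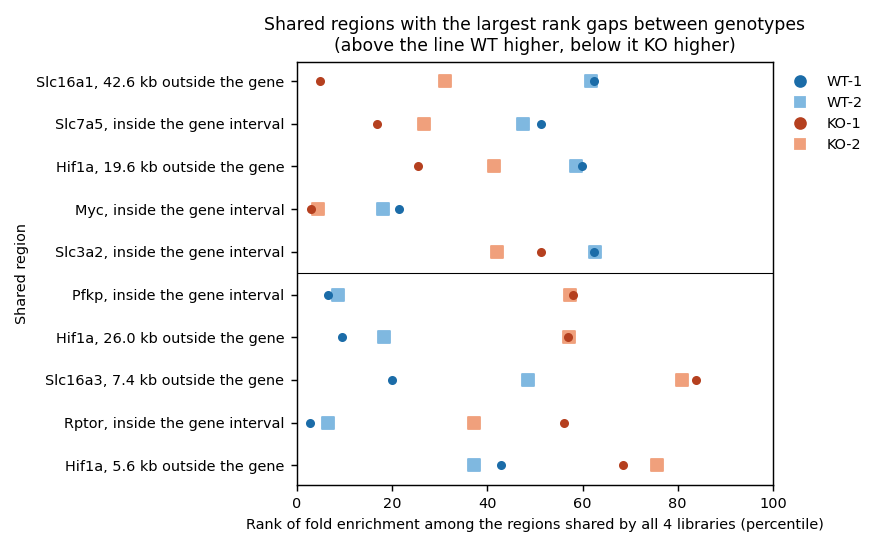
Rank of the deposited fold enrichment among the 26867 shared regions (x axis, percentile) in each library for the 10 shared member regions (y axis) with the widest gaps between genotypes, 5 in each direction. The Pfkp region separates most, with WT below 10 and KO above 57.

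Further genes of the same pathways were counted from lists, without a test. Among 47 other mTOR pathway genes, 31 of 265 regions were WT-only (11.7%) and 7 KO-only (2.64%), with 6 WT-only regions at Prr5, a subunit of mTOR complex 2, and 3 against 4 KO-only at Pik3r1, the regulatory subunit of PI3 kinase. Among 25 other nutrient transporters, 16 of 186 were WT-only (8.60%) and 8 KO-only (4.30%), led by Slc38a1, a glutamine transporter, with 4 and 1. Among 25 other glycolysis and pyruvate genes with a region, 7 of 71 were WT-only (9.86%) and 0 KO-only. HIF and Myc network partners had 10 (7.25%) and 2 (1.45%) of 138, and other genes of fatty acid oxidation and mitochondrial biogenesis 9 (9.78%) and 1 (1.09%) of 92, with 3 WT-only at Acsl1. Against 9.65% and 1.88% over all genes, the share of WT-only regions of these lists ran from 7.25% to 11.7%, where B cell markers had 49.2% and T cell markers 4.35%. The KO-only share was 0.781% for B cell and 8.70% for T cell markers, and its part in the members' KO-only regions was not tested.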

How the data were processed

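ATAC-seq peak lists of 2 WT and 2 KO libraries were used, 1 deposited list per library, without a header. The sorted cells had been frozen and thawed before transposition, per the labels' protocols. Per the submitters' processing notes, the tools included MACS2, Picard, BWA, deepTools and SAMtools and the builds GRCm38 and mm10. Versions, settings, read filters and any shift for the transposase: not given in the sources used here. The deposited fold enrichment (column 7) is a ratio to the caller's background in that library. Values of −log10 q served only to filter and rank, and −log10 p only to take the strongest peaks of each list. The deposited score repeats the −log10 p and was not used, and the deposited summit offset gave summit positions. Without read numbers the depth is unknown, and no interval for counting error was set. All are the authors' values for single peaks.

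Peaks were merged with Python 3.11 and pandas 2.3; positions are 1-based. A midpoint inside several genes went to the gene with the nearer end, a case that none of the 219 member regions met. When a tied region counted for every gene, 100 regions of members were shared, against 99. Genes and starts come from RefSeq tables for GRCm38.p6 without exons, so exon, intron and UTR positions are not given. Merging, gene assignment and classes were tested on simulated data. The members and gene lists were chosen with earlier results of these data known. Named were all members, every WT-only and KO-only region, the strongest region of a member, the 5 widest gaps in each direction, and up to 3 genes of a further list; 2 genes of the lists are not reported here. Single values were compared by an exact permutation test. Natural killer and melanocyte marker lists had 6 of 33 and 0 of 21 regions WT-only, with 0 KO-only in both.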

Additional observations from a re-analysis of the deposited data

How the results depend on the processing

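The 15 WT-only, 7 KO-only and 99 shared member regions, the difference of 14.5 regions and the 26 and 22 shared regions whose ranks did not overlap were recomputed, the first 4 under other peak, overlap and gene rules, the last 2 under other rankings, and all without each library. When peaks needed a −log10 q of 10 or more, there were 4 WT-only, 3 KO-only and 51 shared regions, and at 5 or more there were 3 KO-only ones. With the 20000 strongest peaks by −log10 p there were 6 WT-only and 47 shared regions, and the difference became -3 (exact permutation p = 0.333). Both settings drop weak peaks by construction. Leaving out a library gave 16 to 40 WT-only, 7 to 33 KO-only and 99 to 111 shared regions, a difference of 0.5 to 28.5, and 37 to 45 and 27 to 42 regions whose ranks did not overlap. Ranking by −log10 q gave 31 and 21, and percentiles of the whole list 26 and 15. Other overlap rules, a 10 kb limit and ties gave 13 to 16 WT-only and 7 to 10 KO-only regions. Shares over all assigned regions were made for the main setting only. With the replicate number as a block the difference was 14.5 (exact sign-flip p = 0.5, the lowest value that 2 blocks allow). The labels do not say that a number marks a shared mouse or day. Over 26867 shared regions the rank difference WT-1 minus WT-2 was nearly uncorrelated with KO-1 minus KO-2 (r = -0.0329). That value concerns ranks of shared regions, not the presence of peaks, and a shared mouse or day was not tested.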
